A study of Mus musculus with 4 samples.

Results

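Transcript levels were compared for 10 genes that act downstream of the kinase ERK: the RSK kinase genes Rps6ka1, Rps6ka2, Rps6ka3 and Rps6ka6, the MSK kinase genes Rps6ka4 and Rps6ka5, the MNK kinase genes Mknk1 and Mknk2, and the transcription factor genes Elk1 and Creb1. They were taken by symbol from the 24421 genes that each deposited table lists, and all 10 were found. The study, titled as work on ERK signalling in a mouse model of Noonan syndrome, deposited 4 RNA-seq libraries from mouse brain. The 2 libraries labelled excitatory were made from αCaMKII-positive neurons and the 2 labelled inhibitory from vGAT-positive neurons. Each library holds 100 fluorescent cells that were picked by hand. Per the labels' protocols the αCaMKII-Cre and vGAT-IRES-Cre colonies were kept by breeding to wild-type C57Bl/6J mice, and males aged 3 to 5 months were used. The labels name no Noonan allele, brain region, reporter or treatment for these libraries. They do not say whether replicate libraries came from separate animals, and the p-values below therefore reflect only how far these libraries lie apart, which may be technical.

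ERK, once activated by the RAS cascade, phosphorylates a small set of kinases that carry the signal further. RSK kinases act in the cytoplasm and nucleus on translation, survival and transcription, MSK kinases act in the nucleus on CREB and histone H3, and MNK kinases phosphorylate the cap-binding protein eIF4E while bound to its scaffold eIF4G. MSK and MNK kinases are also activated by p38 kinases. Elk1 is a ternary complex factor that ERK phosphorylates directly and that works with the serum response factor SRF, and Creb1 encodes CREB, the factor at cAMP response elements that RSK and MSK phosphorylate. In neurons these proteins link synaptic activity to gene expression that is needed for lasting plasticity.

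A deposited value was read as log2(normalized reads + 1), not divided by gene length, and a difference is excitatory minus inhibitory on that scale. The added 1 is an assumption that the low values do not bear out, as described under processing. Differences were tested with limma's moderated test over the 13619 genes that reached a value of 1 in 2 or more libraries, and passing means a Benjamini-Hochberg adjusted p below 0.05. The oligodendrocyte gene Mbp has the same highest value, 21.33, in all 4 tables, and the median difference of all tested genes was 0.52, so each of the 10 genes and each list count is also given after median-of-ratios scaling, which put that median at -0.01 and is called scaled below. Of 33 named list genes that passed in the deposited values, 29 passed in the same direction after scaling, and the other 4 are given with their scaled p. Estimated depth was 61900000 to 74200000 reads per library. Marker genes did not separate the labels cleanly. Beside their counts, 45.0% of all tested genes were higher in the excitatory libraries and 26.8% in the inhibitory ones. Slc32a1, which encodes vGAT, had a value of 0 throughout, and of 8 GABAergic markers 2 were higher in the excitatory libraries and 1 in the inhibitory ones. Of 7 glutamatergic markers 4 were higher in the excitatory libraries and 1 in the inhibitory ones. Of 10 microglia and leukocyte markers 6 were higher in the inhibitory libraries and 0 in the excitatory ones (summed level, on the log2 scale, 14.92 and 15.05 against 16.17 and 15.86). Of 7 astrocyte markers 6 were higher in the excitatory libraries and 0 in the inhibitory ones (20.96 and 20.94 against 20.25 and 20.15), and of 6 oligodendrocyte markers 3 and 0 (21.50 and 21.48 against 21.39 and 21.39). Of 4 endothelial markers Cldn5 and Cdh5 were listed at 0 in all 4. The part of these cells in the results below was not tested.

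Of the 4 RSK genes, Rps6ka1 was high in every library, Rps6ka2 was high only in the libraries labelled excitatory, Rps6ka3 was low and Rps6ka6 was listed at 0 in all 4. Rps6ka1, which encodes RSK1, lies at chr4:133847290-133887797 of mm10, on the minus strand. It shares 247 exon bases with the antisense gene Gm12977, which has no deposited value. Rps6ka1 had 12.93 and 12.78 (excitatory) against 12.45 and 11.31 (inhibitory). The inhibitory libraries lay below both excitatory ones, but inhibitory replicate 2 stood 1.13 below inhibitory replicate 1. With a standard error of 0.40, the difference of 0.97 did not pass (limma adjusted p = 0.0822). After scaling the groups overlapped (12.62 and 12.54 against 12.76 and 11.54) and the difference was 0.43 (limma adjusted p = 0.423). The call changed with the inhibitory library used: without inhibitory replicate 1 the difference was 1.54 (limma adjusted p = 0.0272), and without inhibitory replicate 2 it was 0.41 (0.113).

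Rps6ka2, which encodes RSK3 and lies at chr17:7170115-7303315 on the plus strand, gave the largest difference among the 10 genes. Its value was 9.77 and 9.81 in the excitatory libraries, 0.04 apart, against 1.08 and 3.50 in the inhibitory ones. These correspond to about 672 and 728 reads against about 2 and 12, so the inhibitory values rest on few reads. The estimates take the lowest values of each library as 1 read and may be 1 read low in the inhibitory libraries. The difference was 7.50 (SE 0.86, limma adjusted p = 0.00145), and 7.03 (SE 0.88, 0.00256) after scaling. In bulk libraries, fewer cells that express a gene and less RNA per cell cannot be told apart. The call was lost without excitatory replicate 1 or excitatory replicate 2 (limma adjusted p = 0.0913 and 0.0912), with differences of 7.52 and 7.48. The 250 bases before the RefSeq start of Rps6ka2 (chr17:7169865-7170114 of GRCm38.p6, plus strand) are shown because this promoter belongs to the gene with the largest difference, with each GC box, GGGCGG on either strand, in capitals.
Rps6ka2: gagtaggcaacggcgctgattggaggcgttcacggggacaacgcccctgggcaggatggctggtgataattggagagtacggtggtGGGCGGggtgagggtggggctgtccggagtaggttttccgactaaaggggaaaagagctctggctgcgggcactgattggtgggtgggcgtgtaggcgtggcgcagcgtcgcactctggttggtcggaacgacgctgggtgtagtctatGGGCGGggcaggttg

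Rps6ka3, which encodes RSK2, the kinase mutated in Coffin-Lowry syndrome, lies at chrX:159210307-159368244. It had 4.18 and 6.25 (excitatory) against 2.83 and 0 (inhibitory). That is about 14 and 62 reads against about 9 and 0. The groups did not overlap, but libraries of the same label lay 2.07 and 2.83 apart. The difference of 3.80 (SE 1.21) passed in the deposited values (limma adjusted p = 0.0417) and not after scaling (3.40, SE 1.31, 0.0793), and it failed without any 1 of the 4 libraries (0.110 to 0.343). With 10 added on the linear scale in place of the assumed 1 the difference was 1.92. Rps6ka3 met the filter on low values only through the excitatory libraries. Rps6ka6, the gene of RSK4 at chrX:111388192-111537959, was not tested because all its values were 0. Exact zeros are given as listed and not read as absence. In an inhibitory library a listed 0 may stand for 1 read, so low values are not equivalent between the labels.

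**Figure D1:**
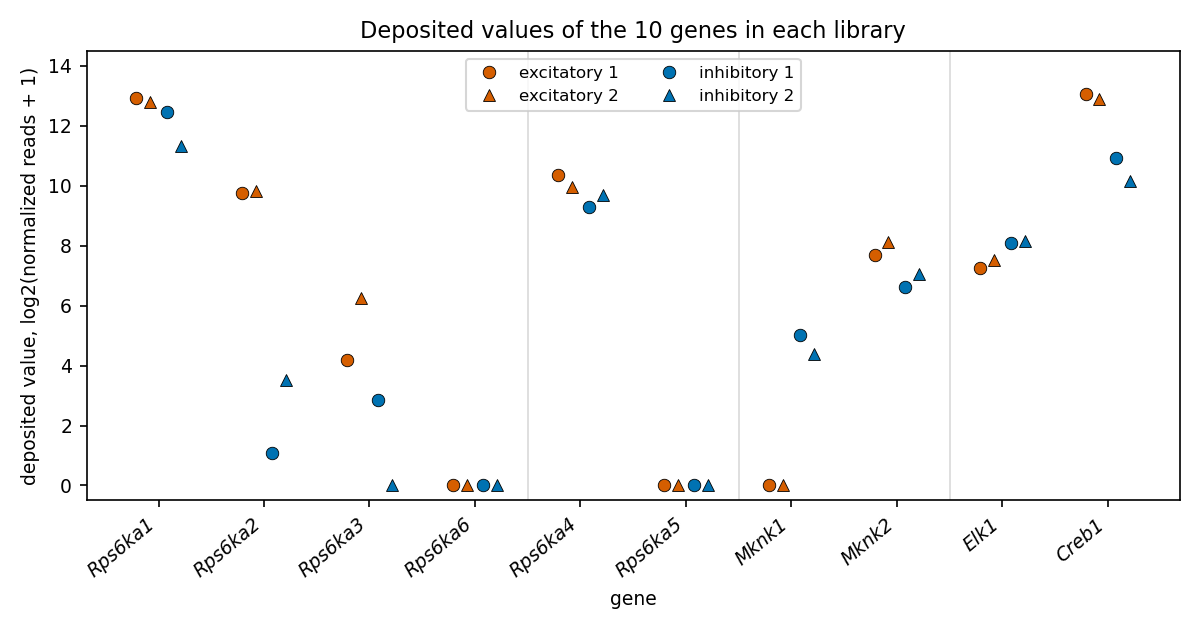
Deposited value of each gene, read as log2(normalized reads + 1), in the 2 excitatory (orange) and 2 inhibitory (blue) libraries. Circles mark replicate 1 and triangles replicate 2. Genes run from RSK through MSK and MNK to the transcription factors; Rps6ka2 and Creb1 sit higher in both excitatory libraries, Mknk1 is at 0 there, and Rps6ka5 and Rps6ka6 are at 0 in every library.

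The MSK genes showed the same member in every library. Rps6ka4, which encodes MSK2 and lies at chr19:6829085-6840636 on the minus strand, had 10.37 and 9.96 (excitatory) against 9.29 and 9.69 (inhibitory). The groups lay side by side with gaps of 0.41 and 0.40 within them, and the difference, 0.67 with a standard error of 0.27, did not pass (limma adjusted p = 0.0786). After scaling the groups overlapped and the difference was 0.13 (95% interval -0.52 to 0.78, limma adjusted p = 0.662). Rps6ka5, which encodes MSK1 at chr12:100548439-100726983, was listed at 0 in all 4 libraries. Exons of the microRNA gene Mir5046 lie within Rps6ka4 over 59 bases on the same strand, so reads there could have been counted for either gene. Rps6ka4 also shares 654 exon bases on the same strand with CAAA01066123.1, which has no deposited value.

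Of the MNK genes, Mknk1 was higher in the inhibitory libraries in both scalings, and Mknk2 was higher in the excitatory ones in the deposited values only. Mknk1, which encodes MNK1 and lies at chr4:115839198-115879250, had listed zeros in the excitatory replicates, against 5.02 and 4.39 (inhibitory), about 44 and 23 reads. It passed limma's test in the deposited values (adjusted p = 0.000616) and after scaling (0.000702). Its equal zeros have a standard deviation of 0, so the spread between its replicates comes from the inhibitory libraries alone. With 1 library left out the difference was -5.02 to -4.39. Mknk1 shares 260 exon bases with the antisense gene Gm29434, which has no deposited value. Reads there could come from either gene where strand is not marked, and their part was not tested. Mknk1 met the filter on low values only through the inhibitory libraries, so that once tested it had to differ in this direction. The fitted difference of -4.71 was the same with no filter but depends on the zeros being listed as 0 on the log2 scale. With 10 added on the linear scale in place of the assumed 1 it was -1.82. Mknk2, which encodes MNK2 at chr10:80665327-80678112 on the minus strand, was found in all libraries, at 7.70 and 8.12 (excitatory) against 6.61 and 7.06 (inhibitory). All 4 values rest on about 135 to 226 reads. Its difference of 1.07 (SE 0.34) passed in the deposited values (limma adjusted p = 0.0395), was 0.53 after scaling (0.218), and did not pass without any 1 library (0.111 to 0.194). Both promoters, each the 250 bases before the RefSeq start, are shown because the differences of these paralogs had opposite signs: Mknk1 at chr4:115838948-115839197 on the plus strand and Mknk2 at chr10:80676294-80676543 on the minus strand of GRCm38.p6. Capitals mark GC boxes, and in Mknk2 also a CArG box, the site type bound by SRF, which overlaps TATAAA.
Mknk1: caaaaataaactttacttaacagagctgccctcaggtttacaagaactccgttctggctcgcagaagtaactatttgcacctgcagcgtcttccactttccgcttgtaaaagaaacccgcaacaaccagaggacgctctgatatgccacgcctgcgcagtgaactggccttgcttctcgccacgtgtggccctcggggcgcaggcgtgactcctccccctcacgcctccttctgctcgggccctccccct
Mknk2: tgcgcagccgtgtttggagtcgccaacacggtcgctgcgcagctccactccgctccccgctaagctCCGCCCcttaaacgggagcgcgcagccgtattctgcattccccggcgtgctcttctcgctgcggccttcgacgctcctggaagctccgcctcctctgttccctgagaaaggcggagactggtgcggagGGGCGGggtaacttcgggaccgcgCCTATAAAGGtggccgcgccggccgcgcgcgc

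Mknk2 held 2 GC boxes and the CArG box, while the Mknk1 window matched none of the searched letters. Promoter windows were matched for 9 of the 10 genes. RefSeq gave 3 windows for Rps6ka1, 2 for Mknk1 and 2 for Rps6ka6. For these genes only the window nearest the GENCODE gene start was searched and the others were not. A GC box was found in 7 of these 9 windows, against 33.0% of 32536 different windows of the same length in the RefSeq table, and a CArG box in 1 of 9, against 1.48%. The full cAMP response element TGACGTCA was found in 0 of 9 windows (1.56% of all), and its core TGACG, which the full element contains, in Rps6ka1, Rps6ka4 and Rps6ka5 (3 of 9, 17.9% of all). The ETS core CCGGAAG was found in 0 of 9 (6.95%), CCAAT in 5 of 9 (33.8%) and TATAAA in 2 of 9 (12.3%). Both strands were searched. The GC content of the 9 windows ran from 46.4% (Rps6ka6) to 74.4% (Rps6ka1), against a median of 52.4% over all windows. These matches describe letters and not binding.

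Creb1 was higher in the excitatory libraries in both scalings, and Elk1 was higher in the inhibitory ones after scaling only. Creb1, at chr1:64532645-64604548 on the plus strand, had 13.05 and 12.90 (excitatory) against 10.91 and 10.15 (inhibitory). Both inhibitory values lay below the excitatory ones, with a gap of 0.76 between them and of 0.16 between the excitatory ones. The difference was 2.45 (SE 0.29), a 5.45-fold higher level in the excitatory libraries (limma adjusted p = 0.00163), and 1.90 after scaling (SE 0.32, 3.74-fold, 0.00627). The call was lost without excitatory replicate 1 (limma adjusted p = 0.0916) or excitatory replicate 2 (0.0844), with differences of 2.37 and 2.52. The promoter of Creb1 (chr1:64532554-64532803 of GRCm38.p6, plus strand, 250 bases before the RefSeq start) is shown because Creb1 passed in both scalings, with its GC box in capitals.
Creb1: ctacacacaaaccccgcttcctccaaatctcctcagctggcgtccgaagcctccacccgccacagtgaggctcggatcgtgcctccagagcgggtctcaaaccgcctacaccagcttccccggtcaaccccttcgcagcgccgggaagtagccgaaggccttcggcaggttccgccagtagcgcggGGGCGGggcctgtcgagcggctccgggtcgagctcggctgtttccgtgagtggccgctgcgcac

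Elk1, at chrX:20933395-20950608 on the minus strand, had 7.27 and 7.54 (excitatory) against 8.09 and 8.14 (inhibitory). The inhibitory libraries lay 0.05 apart, both above the excitatory ones. Its difference, -0.71 with a standard error of 0.27, did not pass in the deposited values (limma adjusted p = 0.0696), whereas after scaling it was -1.25 (SE 0.27) and passed (0.0148). Elk1 shares 76 exon bases with Uxt on the same strand, and Uxt had 8.73 and 7.88 (excitatory) against 7.58 and 7.66 (inhibitory). Within each library, where scaling cancels, the log2 ratio of Creb1 to Elk1 was 5.79 and 5.36 (excitatory) against 2.83 and 2.01 (inhibitory). The ratio of Creb1 to Rps6ka1 was 0.13 and 0.11 against -1.54 and -1.16. These ratios are not per length, so they compare labels and not the genes with each other.

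**Figure D2:**
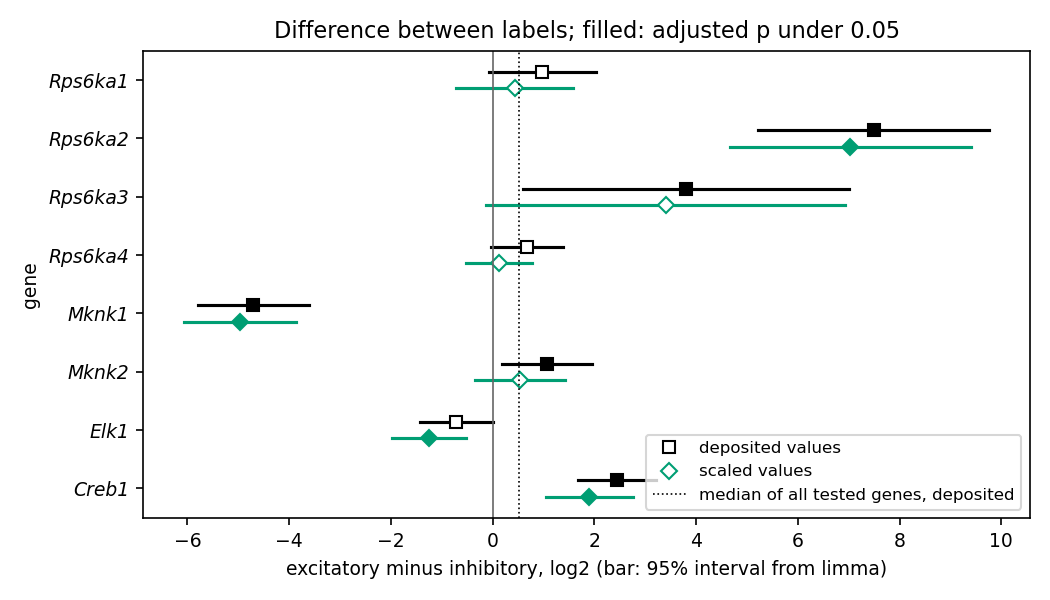
Excitatory minus inhibitory difference (log2) of the 8 tested genes with limma's 95% interval, in the deposited values (black) and after scaling (green); filled symbols passed at an adjusted p below 0.05 and the dotted line is the median of all tested genes, 0.52. Rps6ka2, Creb1 and Mknk1 are filled in both; Rps6ka3 and Mknk2 only in the deposited values and Elk1 only after scaling, and the Mknk1 difference rests on listed zeros.

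In the deposited values 4 of the 8 tested genes were higher in the excitatory libraries (Rps6ka2, Rps6ka3, Mknk2 and Creb1), where 45.0% of all 13619 tested genes were, and 1 (Mknk1) was higher in the inhibitory libraries, where 26.8% of all were. In all, 71.8% of tested genes passed in either direction. After scaling 2 were higher in the excitatory (Rps6ka2 and Creb1; 32.4% of all) and 2 in the inhibitory libraries (Mknk1 and Elk1; 33.5% of all), and 65.9% of all passed. Of these 8, Rps6ka3 and Mknk1 met the filter only through the label in which they were higher. The median difference of the 8 was 1.02, and 0.48 after scaling. In the deposited values the libraries of the 2 labels did not overlap for any of the 8, as for 86.4% of all tested genes, and after scaling for 6 of the 8, as for 83.3%. An exact permutation test of 2 against 2 libraries cannot go below p = 0.333, so none is given. The first count fell when 1 library was left out, where the label with a lone library adds no spread of its own. Without excitatory replicate 1 or 2 the difference was 7.52 and 7.48 for Rps6ka2, and 2.37 and 2.52 for Creb1. Mknk1 stayed higher in the inhibitory libraries, as its listed zeros and the filter required.

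Levels of different genes were compared per kilobase of annotated exon within a library. The assumed 1 was taken off first, which matters most for the lowest values. Rps6ka1 was the highest of the 10 in all 4 libraries, with 1829 and 1656 normalized reads per kilobase in the excitatory and 1312 and 598 in the inhibitory libraries. Creb1 came next in the excitatory libraries (619 and 556) and Rps6ka4 after it (367 and 276). In the inhibitory libraries Rps6ka4 (174 and 229) stood above Creb1 (140 and 82.7); the ranges do not overlap, but the order turned in inhibitory replicate 1 when the longest transcript served as length (201 against 230). Rps6ka2 followed in the excitatory libraries (87.1 and 89.6) and was among the lowest detected in the inhibitory ones (0.111 and 1.04). Mknk2 (53.2 and 71.1) stood above Elk1 (28.4 and 34.3) in the excitatory libraries, and Elk1 (50.3 and 52.2) above Mknk2 (24.9 and 34.1) in the inhibitory ones. Mknk1 reached 7.0 and 4.43 in the inhibitory libraries, and Rps6ka3 was at most 9.02 in any library.

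**Figure D3:**
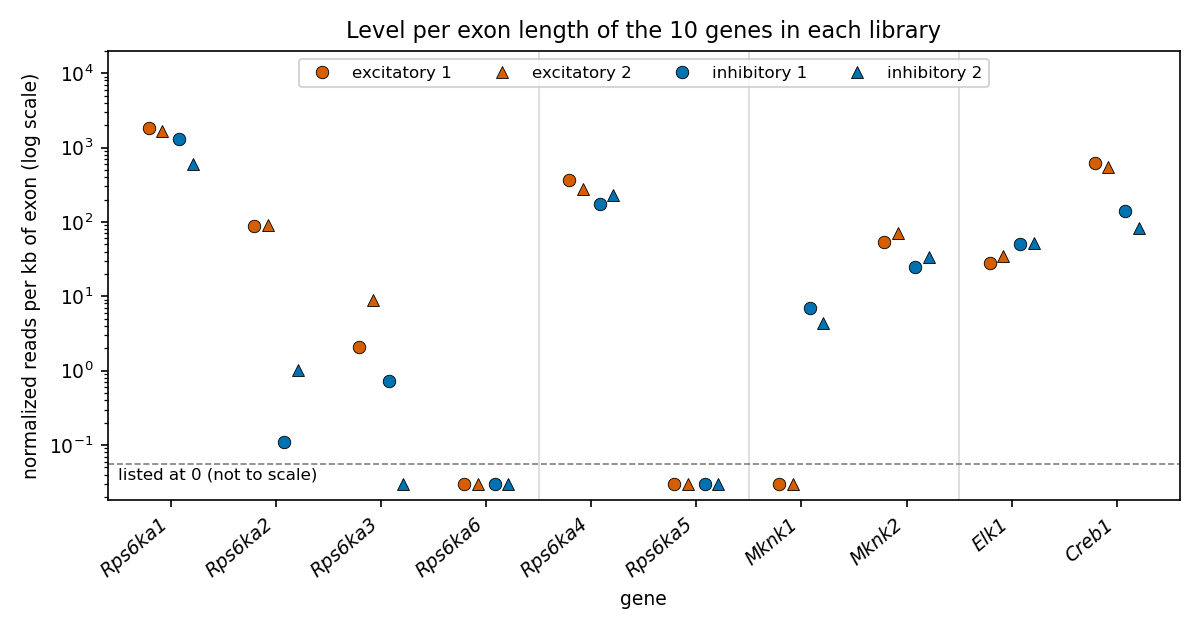
Normalized reads per kilobase of exon (log axis) of each gene in each library, with listed zeros drawn below the dashed line and not to scale. Rps6ka1 is highest in every library, and Elk1 and Mknk2 change places between the labels.

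Within each family these levels gave shares that do not depend on how libraries were scaled to each other. Rps6ka1 made up 95.4% and 94.4% of the RSK signal per kilobase in the excitatory and 99.9% and 99.8% in the inhibitory libraries. Rps6ka2 made up 4.54% and 5.11% in the excitatory libraries (6.07% and 6.82% with the longest transcript as length) and 0.00847% and 0.173% in the inhibitory ones. Mknk2 made up all of the MNK signal in the excitatory libraries, and 78.1% and 88.5% in the inhibitory ones, where Mknk1 held 21.9% and 11.5%. Rps6ka4 made up the whole MSK signal in every library. These whole shares rest on listed zeros, of Rps6ka5 in every library and of Mknk1 in the excitatory ones. Of all 24421 genes, 9583 were listed at 0 in all 4 libraries. With 2 libraries per label these shares are a description and carry no test.

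Among the kinases that activate RSK, MSK and MNK, 3 of the 4 p38 genes were higher in the inhibitory libraries and Mapk3 in the excitatory ones. Of 9 such genes, 3 were higher under the excitatory label and 4 under the inhibitory label (2 and 4 after scaling). For this and every list below, the shares of all tested genes were 45.0% and 26.8% (32.4% and 33.5% after scaling). The median difference of the 9 genes was 0.15, which turned to -0.39 after scaling, against 0.52 and -0.01 over all tested genes. Mapk14, the gene of p38α, had 5.70 and 6.11 (excitatory) against 10.50 and 10.25 (inhibitory). Mapk12 (0.43 and 0 against 9.73 and 10.18) and Mapk13 (0 and 1.32 against 9.66 and 9.73), genes of p38γ and p38δ, were near 0 in the excitatory libraries. The remaining p38 gene, Mapk11, named here after its values were seen, did not pass (limma adjusted p = 0.0844). Mapk12 and Mapk13 met the filter on low values only through the inhibitory libraries, so their direction supports nothing beyond the values; Mapk14 met it through both labels and passed in all 4 fits without 1 library. Mapk3 (ERK1) was higher under the excitatory label by 1.4 (SE 0.13, limma adjusted p = 0.000825), and by 0.86 after scaling.

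Among ternary complex factors and their partners, 4 of 7 genes were higher in excitatory libraries and 2 in inhibitory ones, in both scalings (median difference 1.19, and 0.65 after scaling). SRF, the partner of Elk1, and its myocardin-related coactivators were all higher in the excitatory libraries: Srf had 9.58 and 9.37 (excitatory) against 6.20 and 5.66 (inhibitory), Mkl1 had 11.12 and 11.33 against 7.60 and 7.27, and Mkl2 had 12.78 and 12.86 against 11.63 and 11.64. These calls held in all 4 fits without 1 library. Elk4, another ternary complex factor gene, was low everywhere (1.4 and 0.35 against 2.99 and 2.81); its call, higher in the inhibitory libraries, was lost when either inhibitory replicate was left out. Ets2, an ETS family gene, had listed zeros in the excitatory replicates against 3.11 and 4.06 (inhibitory), and its call was lost when either excitatory replicate was left out. Elk4 and Ets2, the 2 genes counted as higher in the inhibitory libraries, met the filter on low values only through those libraries, as 1 of the 4 higher in the excitatory libraries did through those. The count of genes higher in the inhibitory libraries was 1 in each fit without 1 library.

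In the CREB family, Crem was higher in the inhibitory libraries, the opposite of Creb1. Of 6 tested genes of this family and its coactivators 4 were higher under the excitatory label and 1 under the inhibitory label (3 and 1 after scaling; median difference 1.22, and 0.68 after scaling). Crem, which encodes activators and repressors at the same elements as CREB, had 8.29 and 7.72 (excitatory) against 14.77 and 15.21 (inhibitory), a difference of -6.98 (SE 0.28, limma adjusted p = 9.49e-05). The log2 ratio of Creb1 to Crem within a library was 4.76 and 5.17 in the excitatory and -3.86 and -5.06 in the inhibitory libraries. Atf1, a close relative of Creb1, differed by 0.73 (SE 0.42) and did not pass (limma adjusted p = 0.179). The CREB coactivator gene Crtc1 was higher in the excitatory libraries (12.39 and 12.30 against 10.85 and 10.62), in all 4 fits without 1 library. Crtc3, Crebbp and Ep300 were also higher there, but each passed in 1 of those 4 fits, and Crebbp did not pass after scaling (limma adjusted p = 0.222). Excitatory replicate 1 and excitatory replicate 2 were each needed for all 3 calls, with inhibitory replicate 2 for Crtc3 and inhibitory replicate 1 for Crebbp and Ep300.

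In the list of cap-binding genes, their relatives and MNK substrates, Eif4e2 was higher in the excitatory libraries and 3 eIF4G family genes in the inhibitory ones, in both scalings. Of 9 tested genes 6 were higher under the excitatory label and 3 under the inhibitory label (3 and 3 after scaling; median difference 1.05, and 0.50 after scaling). Eif4e, the MNK substrate, had 14.19 and 13.98 against 12.77 and 13.31, a difference of 1.05 (SE 0.21, limma adjusted p = 0.01) that did not pass after scaling (0.50, 0.0690). Its relative Eif4e2 was higher by 1.80 (SE 0.13) and passed in both scalings and in all 4 fits without 1 library. Without 1 library the counts were 1 to 2 in each direction, lowest for the excitatory label without inhibitory replicate 1. The third eIF4G family gene, Eif4g1, was named here after its values were seen. Its difference of -1.81 (SE 0.43) passed (limma adjusted p = 0.0171), but not when either inhibitory replicate was left out. The eIF4G family genes Eif4g2 and Eif4g3 were higher in the inhibitory libraries (-0.82, SE 0.10, and -1.78, SE 0.19). Both lost the call without excitatory replicate 1 or 2. Eif4e passed only without inhibitory replicate 2 among the 4 fits. Sfpq, an RNA-binding MNK substrate, was 2.29 higher in the excitatory libraries (SE 0.33), a call lost without inhibitory replicate 1 or 2.

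RSK substrates and the genes that CREB and SRF switch on held members higher under either label. Of 9 tested substrate genes 4 were higher under the excitatory label and 5 under the inhibitory label (2 and 5 after scaling; median difference -1.10, and -1.64 after scaling). Without excitatory replicate 1 or 2 the counts were 1 and 2, and without inhibitory replicate 1 or 2 they were 3 and 0. Rps6, which encodes ribosomal protein S6, gave a difference of 0.74 (SE 0.08) that passed (limma adjusted p = 0.00129), against 0.20 after scaling (0.113). The kinase gene Gsk3a and the cell death gene Bad were higher in the excitatory libraries and Tsc2, an inhibitor of mTOR signalling, and Dapk1 in the inhibitory ones, in both scalings. Each of these lost its call in at least 2 of the 4 fits without 1 library: Gsk3a and Bad without excitatory replicate 1 or 2, Tsc2 without inhibitory replicate 1 or 2, and Dapk1 without any of the 4. Of 8 target genes 2 were higher under the excitatory label (45.0% of all tested genes) and 6 under the inhibitory label (26.8% of all). The counts were the same after scaling (32.4% and 33.5% of all). The median difference of the 8 target genes was -2.41, and -2.94 after scaling. Without 1 library 3 to 4 genes passed as higher in the inhibitory libraries, with 3 without inhibitory replicate 1. Nr4a1 had 9.19 and 8.73 (excitatory) against listed zeros in the inhibitory replicates, and Arc had 13.30 and 13.35 against 12.04 and 11.84. Fos, Junb and Dusp1 went the other way, by -7.83, -5.19 and -9.94. Fos, Junb and Arc passed in all 4 fits without 1 library. So did Nr4a1 and Dusp1, but these met the filter on low values only through the label in which they were higher.

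**Figure D4:**
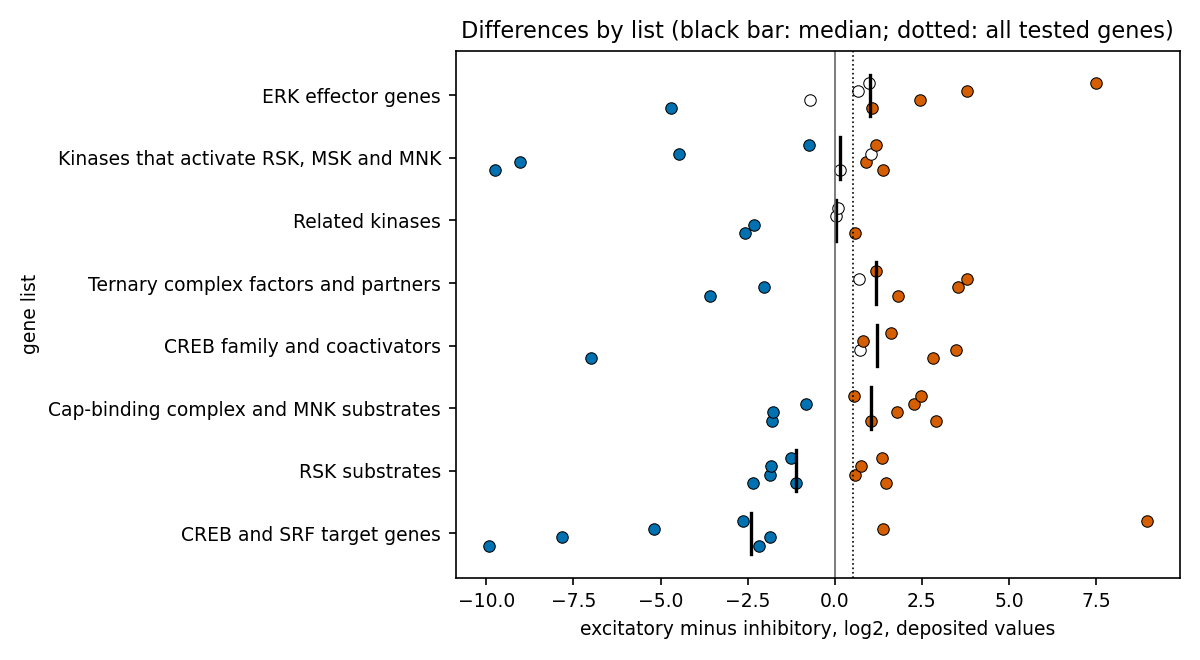
Excitatory minus inhibitory difference (log2, deposited values) of each tested gene in the 10-gene set and 7 lists of pathway genes; orange passed as higher in the excitatory, blue as higher in the inhibitory libraries and white did not pass. Black bars are list medians, from -2.41 (CREB and SRF target genes) to 1.22 (CREB family), and the dotted line is the median of all tested genes, 0.52.

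The genes whose 4 values lay closest to Rps6ka2 and Mknk1, which had the largest difference passing the test in each direction, were found by root mean square difference over the 4 libraries. For Rps6ka2 they were Itpa, Evc2 and Iffo2, at distances of 0.35, 0.38 and 0.39 on the log2 scale. For Mknk1 they were Tmem63c, Snord53 and Zcwpw1, at 0.02, 0.07 and 0.07, all listed at 0 in both excitatory libraries. With 4 libraries such likeness describes the values only.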

How the data were processed

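Total RNA of hand-picked cells was made into cDNA with SMART-seq v4 and into libraries with Nextera XT, per the labels' protocols; neither is described there as marking strand. The authors' deposited tables hold 1 log2 value per gene and library. The submitters' processing notes name TopHat, edgeR and the build mm10; for versions, counter and annotation, the sources used here give nothing. The low values lie in evenly spaced bands (spacing 1.29, 1.23, 0.72 and 0.873 linear units). The log2 base was read from them, and an added 1 was assumed. With that 1 taken off, the lowest bands lay at 0.315, 0.248, 0.391 and 0.727, not at whole multiples of the spacing. With it left in, they lie near whole multiples, a higher multiple in the inhibitory libraries. The added 1 is therefore not borne out, and the scaled, per-kilobase and larger-pseudocount values rest on it. Estimated reads took the lowest band as 1 read, so inhibitory estimates may be 1 read low. They are not exact counts, so no count model or counting interval is given.

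Tables were joined by symbol and fitted with limma 3.58.1 in R 4.3.3 (mean-variance trend; 2 residual and 2.56 prior degrees of freedom), with Benjamini-Hochberg adjustment over 13619 genes. The fit was also run on simulated independent normal values. Changes were placed only in genes with high mean values, so that run does not cover genes with low or listed-zero values. Exon lengths and coordinates came from GENCODE M21, on the same build, and promoters from RefSeq GRCm38.p6. Replicates of a label differed by a median chi-square of 51.5 and 56.2 times counting error, so none was counted as a copy.

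The 10 genes and the 7 lists were chosen with earlier results of these data known. From each list, up to 5 genes past the threshold in either scaling were named, by smallest p, beside all 10 genes, genes they are set against and the 3 genes most like the extreme ones. Alternatives were other scalings, filters, pseudocount, prior, a replicate block and leaving out each library. The result of 1 list gene is not reported here.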

Additional observations from a re-analysis of the deposited data

How the results depend on the processing

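In the deposited values 4 of the 8 tested genes were higher under the excitatory label (45.0% of all tested genes) and 1 under the inhibitory label (26.8%). After median-of-ratios scaling both counts were 2 (32.4% and 33.5% of all), as they were after upper-quartile scaling. With a minimum value of 5 they were 2 and 0 (Mknk1 and Rps6ka3 were then not tested). With no mean-variance trend 2 genes were higher in the inhibitory libraries. Shares by direction are given for the deposited values and median-of-ratios scaling only. Without 1 library, 0 to 3 genes were higher in the excitatory libraries, 1 in the inhibitory ones, and 6103 to 6551 of all tested genes differed, against 9777; the label with a lone library is then assumed to vary like the other. Of all calls, 62.6% were higher in the excitatory libraries in the deposited values and 49.2% after scaling. Over 86 refits of single genes, 62 stayed on the same side of the threshold, 19 lost the call and 5 gained it. In these refits 0 changed direction, but only rescaling could have turned one. Filter, trend and replicate block left each difference as it was. The labels did not overlap in the deposited values for any of the 8 tested genes, so leaving out 1 library or a larger pseudocount could not turn a difference. Rps6ka3 also lost its call with no filter (limma adjusted p = 0.0514) and no trend (0.0669), Mknk2 with the stricter filter (0.0520), and Elk1 gained it with no trend (0.0403); the cause was not tested. Replicate numbers are shared between labels, but deviations of same-numbered libraries correlated at -0.04 over 8185 genes, so they were not treated as pairs; with the replicate block 5 genes were higher under the excitatory label (Rps6ka1 added, limma adjusted p = 0.0149), 1 under the inhibitory label, and 9782 genes differed in all. With the longest transcript as length, the mean excitatory share of Rps6ka1 was 93.3% and that of Rps6ka2 6.45%. Rps6ka3, Mknk1 and, in the inhibitory libraries, Rps6ka2 rest on few estimated reads; the part of depth in their spread was not tested.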

Other observations

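Of 7 kinase genes related to RSK and MSK, among them S6 kinases and the MAPKAP kinases that p38 activates, 5 were tested. In the deposited values 1 was higher under the excitatory label and 2 under the inhibitory label, and after scaling 0 and 2; the median difference was 0.03 and turned to -0.51 after scaling. Rps6kb1, an S6 kinase gene, had 11.34 and 11.15 (excitatory) against 10.58 and 10.73 (inhibitory). It passed in the deposited values (limma adjusted p = 0.0345), not after scaling (0.818) and not without any 1 library (0.0751 to 0.124). Rps6kl1 was higher in the inhibitory libraries (3.84 and 3.11 against 5.31 and 6.78), a call also lost without any 1 library (0.0558 to 0.218). Mapkapk3 had listed zeros in the excitatory replicates against 1.51 and 3.14 (inhibitory), and its call was lost when either excitatory replicate was left out. It met the filter on low values only through the inhibitory libraries, so its place in the count supports no direction.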
